A study of Homo sapiens with 21 samples.

Results

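The genes described here are a list of 48 genes of DNA replication and S phase, taken by symbol from origin licensing, the replication fork, nucleotide supply, chromatin assembly and S-phase repair. Of these, 47 had a row among the 54042 genes of the count table, and all 47 passed the filter on low counts that left 11610 genes for testing. UHRF1, the listed gene with no row, has no expression value here and enters only the promoter windows. The messenger RNA of MV4-11 cells, an established line from a human acute leukaemia of mixed myelomonocytic and B-lymphoid type, was measured in 21 libraries, 3 in each of 7 groups, by sequencing transcript 3′ ends. The groups were an HK2 CRISPR knockout (hexokinase 2) with ironomycin for 24 h or with DMSO, a PGP CRISPR knockout (phosphoglycolate phosphatase) with ironomycin for 24 h or with DMSO, and wild type cells with DMSO or with ironomycin for 6 h or 24 h. Ironomycin, also called AM5, is a small molecule derived from salinomycin, and DMSO is its solvent. By its title, the study addresses pharmacologic depletion of iron in mitochondria and cell death through BAX and BAK. The labels give no time for DMSO, do not say whether a knockout was 1 clone or a pool, and leave unsaid whether replicates are separate cultures. The p-values therefore cover the spread between these libraries, which may be technical.

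DNA replication starts from origins on which ORC, CDC6 and CDT1 load the MCM2-7 ring during G1. In S phase MCM10, CDC45 and the GINS complex turn the ring into an active helicase, and polymerase alpha-primase, the clamp loader RFC, the clamp PCNA and polymerases delta and epsilon copy the strands. Many of these genes are transcribed under E2F factors and peak around the entry into S phase. Several replication enzymes hold iron: RRM2, the small subunit of ribonucleotide reductase, carries a di-iron centre, and PRIM2 and POLD1 bind an iron-sulfur cluster, as does POLE, for which this was first shown in yeast.

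Counts per library ranged from 3829274 to 6069264 with a median of 4823817, and a count of 3 was worth 0.494 to 0.783 CPM, counts scaled by effective library size, the unit of all levels below. The mean in wild type DMSO lay between 11.8 CPM for GINS4 and 1068 CPM for DNMT1. Library 2 of the wild type 6 h group stood apart: the SD of its log2 deviations from the group mean over all genes was 0.675, against 0.332 to 0.48 in the other libraries, and the results that rest on it are also given without it. Of 12 myeloid markers 9 were tested, with a summed level of 420.4 to 730.9 CPM over all libraries. Of 8 B-lymphoid markers 3 were tested and 2 had no count in any library, and of 9 T cell, erythroid, epithelial and fibroblast markers 1 was tested and 3 had no count. The HK2 transcript averaged 22.0 ± 2.49 CPM in HK2 knockout DMSO and 52.6 ± 14.7 CPM in wild type DMSO, a difference of -1.27 ± 0.28 on the log2 scale that was not called (edgeR adjusted p = 0.121). The PGP transcript averaged 75.4 ± 7.10 CPM in PGP knockout DMSO and 90.6 ± 4.49 CPM in wild type DMSO, a log2 difference of -0.26 ± 0.12 (edgeR adjusted p = 0.879). The edited sites are not given, and a 3′ tag need not reflect an edit, so these levels check neither knockout.

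The E2F-type motif was searched in RefSeq promoter windows (build GRCh38.p14) that run from 250 bases before to 50 after a gene's start. Some genes have several starts and so several windows, and a gene held a match if any of its windows did. Matches were counted on both strands for the 4 forms TTTCCCGC, TTTCGCGC, TTTGCCGC and TTTGGCGC. A form that overlaps its own reverse complement counts once on each strand. Of the 42 listed genes with a window, UHRF1 included, 21 (50%) held at least 1 match, against 1090 of 27305 genes in the table (3.99%). By form, the share of all 35116 windows was 1.63% for TTTCCCGC, 0.515% for TTTCGCGC, 0.607% for TTTGCCGC and 0.652% for TTTGGCGC. GINS4, MCM4, MCM5, POLD3, RPA2 and RPA3 had no window. The 3 stretches below are shown because MCM7, RFC3 and GINS2 had the smallest adjusted p at 24 h among the leading genes of each role that hold a match. Each is the last 150 bases before the start, 5′ to 3′ along the gene's strand, with the match in capitals, written as it reads on that strand.
MCM7, chr7:100101398-100101547, minus strand: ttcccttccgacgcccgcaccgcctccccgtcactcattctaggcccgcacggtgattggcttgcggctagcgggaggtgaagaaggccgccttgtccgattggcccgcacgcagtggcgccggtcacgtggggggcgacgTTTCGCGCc
RFC3, chr13:33817999-33818148, plus strand: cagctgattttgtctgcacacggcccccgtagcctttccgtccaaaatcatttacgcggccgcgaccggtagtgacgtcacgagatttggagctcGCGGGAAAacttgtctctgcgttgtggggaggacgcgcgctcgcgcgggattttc
GINS2, chr16:85688955-85689104, minus strand: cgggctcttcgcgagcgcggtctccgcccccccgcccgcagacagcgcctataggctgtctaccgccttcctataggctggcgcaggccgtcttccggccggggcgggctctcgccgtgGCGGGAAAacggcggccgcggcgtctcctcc
In MCM7 the match began 9 bases before the start, and a second one, TTTCCCGC at 187 bases before it, lies outside the stretch shown. The other windows of MCM7 held no match. In RFC3 and GINS2 the capitals are TTTCCCGC read on the opposite strand, 55 and 31 bases before the start. A match describes the letters in the window and says nothing of factor binding.

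In wild type cells the replication genes were lower at 24 h of ironomycin than in DMSO. Of the 47 genes, 41 fell, none rose and 6 did not pass the test, with a median log2 fold change of -0.93, against 0.03 over all genes. Called means a Benjamini-Hochberg adjusted p under 0.05 in edgeR's quasi-likelihood test, adjusted over all 11610 genes, and 14.6% of all genes were called lower in this comparison. The 3 libraries at 24 h lay below the 3 DMSO libraries without overlap for 45 of the 47 genes, against 22.6% of all genes. At 6 h, against the same DMSO libraries, 22 of the 47 fell, none rose and 25 did not pass, with a median of -0.37, against 0.02 over all genes, and 11.1% of all genes were called lower. Here 26 of the 47 lay below DMSO without overlap, against 17.3% of all genes. In bulk RNA, a smaller share of cells in S phase and less of each transcript per cell cannot be told apart.

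**Figure D1:**
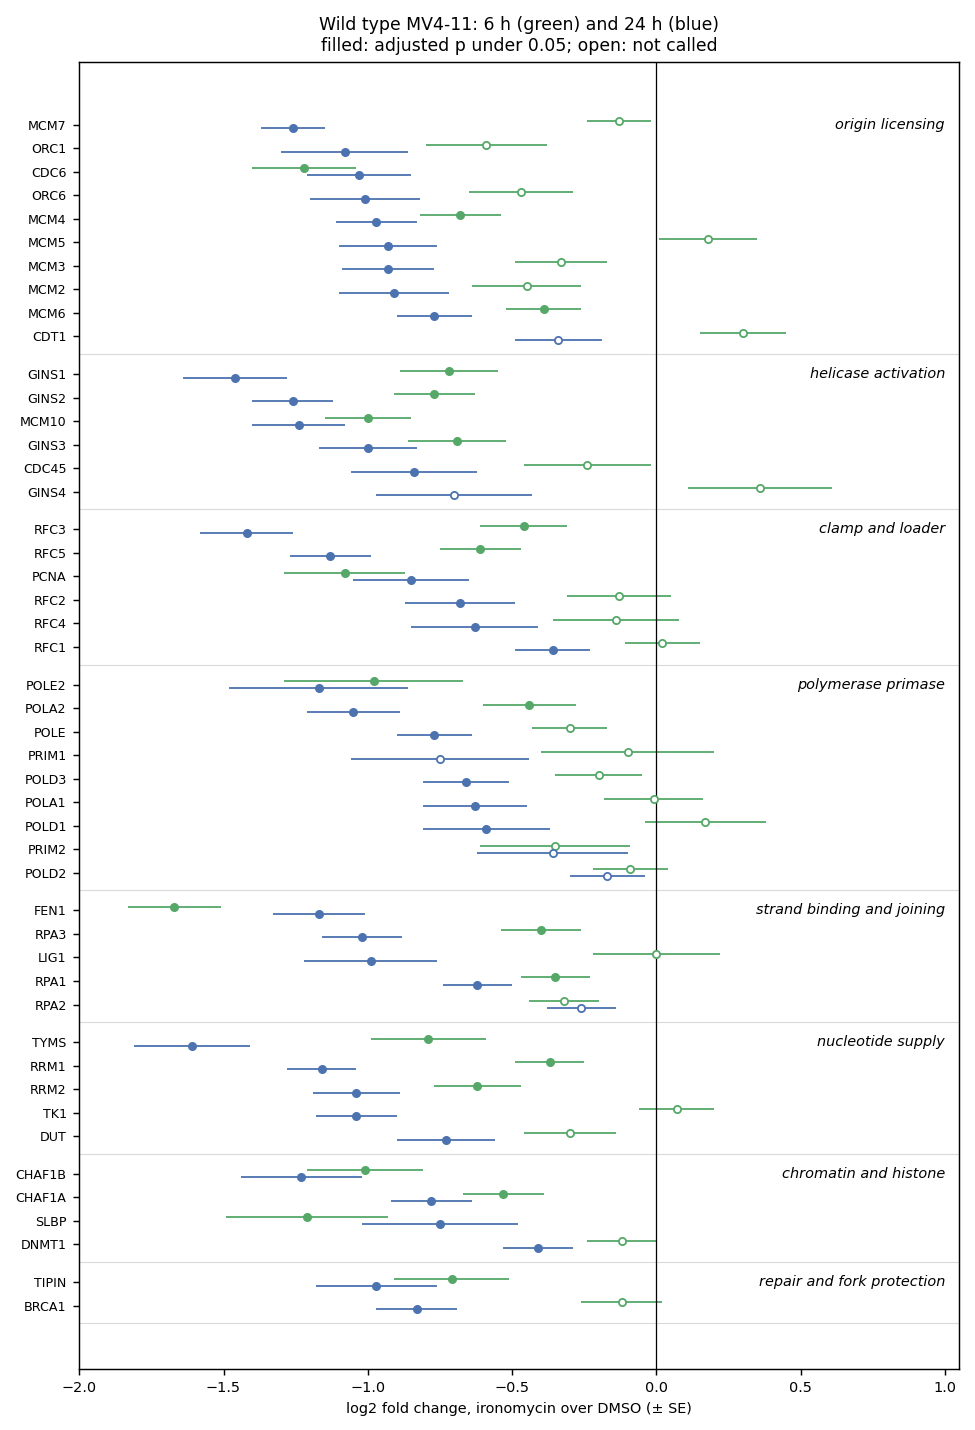
Log2 fold change (x axis, ± SE) of each of 47 replication genes in wild type MV4-11 cells, ironomycin over DMSO, at 6 h (green) and 24 h (blue), grouped by role, with 3 libraries per group. Filled points passed the test and open ones did not. At 24 h every point lies left of 0, between -1.61 and -0.17, while at 6 h they spread between -1.67 and 0.36.

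Among the 10 licensing genes, which load the helicase on origins, 9 fell at 24 h and 3 at 6 h. MCM7 (ENSG00000166508), a subunit of the MCM2-7 ring, had 394, 387 and 374 CPM in wild type DMSO, 326, 412 and 319 CPM at 6 h, and 179.5, 160.5 and 142 CPM at 24 h. The 6 h libraries overlapped DMSO, and all 3 libraries at 24 h lay below every other. Its log2 fold change was -0.13 ± 0.11 at 6 h (edgeR adjusted p = 0.44) and -1.26 ± 0.11 at 24 h (edgeR adjusted p = 2.3e-08), and 24 h was lower than 6 h by -1.13 ± 0.11 (edgeR adjusted p = 2.7e-07). CDC6 (ENSG00000094804), which helps ORC load the ring, stood at 67.9, 65.3 and 75.5 CPM in DMSO, 29.5, 27.9 and 32.1 CPM at 6 h, and 43.8, 29.8 and 28.6 CPM at 24 h. It had already fallen at 6 h, by 1.22 ± 0.18 on the log2 scale (edgeR adjusted p = 4.8e-05), and was at -1.03 ± 0.18 at 24 h (edgeR adjusted p = 1.2e-04). MCM5, another subunit of the ring, had 191, 216 and 193 CPM in DMSO, 189.5, 304 and 187 CPM at 6 h, and 128, 96.8 and 90.4 CPM at 24 h. The high value at 6 h is that of library 2, and the 6 h log2 value of 0.18 ± 0.17, not called, was -0.09 without it. MCM5 at 24 h was below 6 h by -1.11 ± 0.17 (edgeR adjusted p = 7.4e-05). The 6 subunits of the ring were between -0.77 and -1.26 at 24 h, each called, and between -0.68 for MCM4 and 0.18 for MCM5 at 6 h, where MCM4 and MCM6 were called. The 6 h call of MCM6 (-0.39) was lost without DMSO library 2 (-0.35) or 3 (-0.40) or 6 h library 2 (-0.26). ORC1 and ORC6, subunits of the origin recognition complex, were at -1.08 ± 0.22 and -1.01 ± 0.19 at 24 h, both called.

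CDT1, the loading factor that is degraded once S phase begins, was the licensing gene that did not pass at 24 h. It had 130.5, 136 and 118 CPM in DMSO, 158, 191 and 125 CPM at 6 h, and 130.4, 86.3 and 86.3 CPM at 24 h. One library at 24 h lay within the DMSO range and the other two below it. The log2 value was 0.30 ± 0.15 at 6 h (edgeR adjusted p = 0.15) and -0.34 ± 0.15 at 24 h (edgeR adjusted p = 0.0901), and without library 1 of the 24 h group it was -0.58 and called. At 6 h it was called without library 3 of that group, at 0.46. The step between 6 h and 24 h was called, at -0.65 ± 0.15 (edgeR adjusted p = 0.00436), and was lost in a fit of the groups compared alone (-0.65, edgeR adjusted p = 0.096, the other alternatives staying at or under 0.0311).

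Of the 6 genes of helicase activation, 5 fell at 24 h and 4 at 6 h. GINS2 (ENSG00000131153), a subunit of the GINS complex, had 68.5, 56.6 and 71.0 CPM in DMSO, 39.1, 43.4 and 32.6 CPM at 6 h, and 31.8, 24.6 and 25.3 CPM at 24 h. The 3 groups did not overlap. The log2 fold change was -0.77 ± 0.14 at 6 h (edgeR adjusted p = 4.0e-04) and -1.26 ± 0.14 at 24 h (edgeR adjusted p = 7.3e-07). MCM10 (ENSG00000065328), which helps activate the ring, stood at 84.6, 88.9 and 85.8 CPM in DMSO, 44.2, 46.5 and 39.4 CPM at 6 h, and 47.04, 30.15 and 32.3 CPM at 24 h. It was 1.99-fold lower at 6 h (edgeR adjusted p = 7.0e-05) and at -1.24 ± 0.16 on the log2 scale at 24 h, and the 2 times were not called apart (-0.25 ± 0.16), though they were without library 1 of the 24 h group, at -0.48. GINS4, also a GINS subunit, had 11.7, 12.3 and 11.3 CPM in DMSO, 15.2, 15.9 and 14.2 CPM at 6 h, and 8.01, 7.14 and 6.61 CPM at 24 h. The 6 h libraries lay above DMSO and the 24 h libraries below it, yet neither difference passed the test (edgeR adjusted p = 0.33 at 6 h and 0.0561 at 24 h, the 24 h value lying between 0.0131 and 0.136 over the alternatives), while 24 h against 6 h did, at -1.06 ± 0.27 (edgeR adjusted p = 0.00806).

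All 6 genes of the clamp and its loader fell at 24 h, and 3 did at 6 h. RFC3 (ENSG00000133119), a small subunit of the loader, had 59.3, 74.1 and 63.4 CPM in DMSO, 55.3, 43.4 and 44.2 CPM at 6 h, and 30.4, 23.2 and 20.02 CPM at 24 h. The 3 groups did not overlap, and 24 h was lowest. It was at -0.46 ± 0.15 at 6 h (edgeR adjusted p = 0.0317) and -1.42 ± 0.16 at 24 h (edgeR adjusted p = 5.0e-07). The 6 h call was lost on leaving out library 2 or 3 of either group, with edgeR adjusted p between 0.0158 and 0.126 over the libraries left out. It was also lost with the groups compared alone (edgeR adjusted p = 0.0907). PCNA (ENSG00000132646), the sliding clamp, stood at 179, 169 and 239 CPM in DMSO, 112, 56.5 and 109.5 CPM at 6 h, and 114, 96.8 and 115 CPM at 24 h. Both treated groups lay below DMSO and overlapped each other. The clamp was at -1.08 ± 0.21 at 6 h (edgeR adjusted p = 5.9e-04) and -0.85 ± 0.20 at 24 h (edgeR adjusted p = 0.00277). Library 2 of the 6 h group had the lowest value, and the 6 h log2 value of PCNA ran from -1.23 to -0.82 over the libraries left out.

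Of the 9 polymerase and primase genes, 6 fell at 24 h and 2 at 6 h. POLA2 (ENSG00000014138), a subunit of polymerase alpha, had 73.9, 69.1 and 66.2 CPM in DMSO, 55.3, 53.0 and 45.7 CPM at 6 h, and 41.1, 32.5 and 27.2 CPM at 24 h. The groups were ordered without overlap. Its log2 fold change was -0.44 ± 0.16 at 6 h (edgeR adjusted p = 0.0485), a call lost without any single one of the 6 libraries (edgeR adjusted p between 0.0572 and 0.15), and -1.05 ± 0.16 at 24 h (edgeR adjusted p = 3.2e-05). POLE2, the second subunit of polymerase epsilon, was the other gene that fell at 6 h, at -0.98 ± 0.31. That call was lost without DMSO library 3 (-0.81) or 6 h library 2 (-0.66).

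Of the polymerase genes whose proteins bind an iron-sulfur cluster, POLE (ENSG00000177084), the catalytic subunit of polymerase epsilon, had 39.3, 38.0 and 44.6 CPM in DMSO, 36.3, 32.1 and 31.1 CPM at 6 h, and 26.5, 21.03 and 23.9 CPM at 24 h. The libraries fell into 3 separate ranges. It was at -0.30 ± 0.13 at 6 h, not called, and -0.77 ± 0.13 at 24 h (edgeR adjusted p = 1.1e-04). POLD1 (ENSG00000062822), the catalytic subunit of polymerase delta, stood at 18.8, 16.3 and 15.6 CPM in DMSO, 20.1, 22.7 and 14.4 CPM at 6 h, and 11.9, 8.53 and 13.2 CPM at 24 h. The 24 h value of -0.59 ± 0.22 passed narrowly (edgeR adjusted p = 0.0435), was not called by DESeq2 (adjusted p = 0.0548), and was kept without 24 h library 3 but lost without any other single library (log2 values of -0.44 to -0.66). PRIM2 (ENSG00000146143), the large primase subunit, had 11.3, 9.60 and 15.8 CPM in DMSO, 10.0, 6.98 and 11.8 CPM at 6 h, and 10.3, 7.14 and 11.3 CPM at 24 h. All 3 groups overlapped, and the log2 value of -0.36 ± 0.26 at 24 h was not called (edgeR adjusted p = 0.311). PRIM2 has near-identical copies elsewhere in the genome, so its counts are uncertain. PRIM1, the catalytic primase subunit, stood at 35.7, 28.4 and 28.2 CPM in DMSO, 41.8, 11.3 and 32.8 CPM at 6 h, and 21.6, 16.1 and 17.3 CPM at 24 h. The 24 h libraries lay below DMSO, but the log2 value of -0.75 ± 0.31 missed the threshold (edgeR adjusted p = 0.0767, and between 8.3e-04 and 0.193 over the alternatives, called without the filter and with the groups compared alone), and library 2 was the low one at 6 h. POLD2, an accessory subunit of polymerase delta, was at -0.17 ± 0.13 at 24 h and was also not called.

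FEN1 (ENSG00000168496), the nuclease that trims flaps between Okazaki fragments, had the largest fall of the 47 genes at 6 h. It had 314, 332 and 318 CPM in DMSO, 118, 65.0 and 120.2 CPM at 6 h, and 162, 146 and 119.6 CPM at 24 h. Both treated groups lay far below DMSO. The 6 h level was 3.18-fold lower, a log2 fold change of -1.67 ± 0.16 (edgeR adjusted p = 1.6e-07), and 24 h was at -1.17 ± 0.16 (edgeR adjusted p = 6.3e-06). Over the libraries left out, the 6 h value ran from -1.81 to -1.44. FEN1 was the one gene of the 47 called higher at 24 h than at 6 h, by 0.50 ± 0.16 (edgeR adjusted p = 0.0359). Without library 2 of the 6 h group that difference was 0.26 and not called, nor was it without library 1 or 2 of the 24 h group, with edgeR adjusted p between 0.0126 and 0.163 over the libraries left out. LIG1, the ligase that seals the fragments, did not pass at 6 h (edgeR adjusted p = 0.996) and was at -0.99 ± 0.23 at 24 h. Of the single-strand binding protein RPA, RPA1 and RPA3 fell at both times, at -0.35 and -0.40 at 6 h and -0.62 and -1.02 at 24 h. Both 6 h calls were lost without library 2 or 3 of either group, at -0.29 to -0.34 for RPA1 and -0.33 to -0.44 for RPA3. RPA2, its middle subunit, had 90.4, 114 and 101 CPM in DMSO, 85.6, 73.1 and 85.5 CPM at 6 h, and 90.2, 77.0 and 87.5 CPM at 24 h. Both treated groups lay just below DMSO, and -0.26 ± 0.12 at 24 h was not called (edgeR adjusted p = 0.0992). It was called without DMSO library 1, at -0.35 (edgeR adjusted p = 0.0467, up to 0.292 without other libraries).

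All 5 genes of nucleotide supply fell at 24 h and 3 fell at 6 h. RRM1 (ENSG00000167325), the large subunit of ribonucleotide reductase, had 514, 482 and 443 CPM in DMSO, 413, 350.3 and 349 CPM at 6 h, and 249.6, 206 and 188 CPM at 24 h. The 3 groups did not overlap. It was at -0.37 ± 0.12 at 6 h (edgeR adjusted p = 0.0275, and between 0.0164 and 0.103 without single libraries, the call being lost without DMSO library 1 or 2 or 6 h library 2 or 3) and -1.16 ± 0.12 at 24 h (edgeR adjusted p = 2.0e-07). RRM2 (ENSG00000171848), the iron-bearing subunit, stood at 288, 253 and 355 CPM in DMSO, 177, 203 and 203 CPM at 6 h, and 159.6, 129 and 145 CPM at 24 h. It was at -0.62 ± 0.15 at 6 h (edgeR adjusted p = 0.00519) and -1.04 ± 0.15 at 24 h (edgeR adjusted p = 1.9e-05), without overlap with DMSO at either time. TYMS, thymidylate synthase, had the largest fall of the 47 at 24 h, 3.05-fold or -1.61 ± 0.20 on the log2 scale, and was at -0.79 ± 0.20 at 6 h, a call lost with the groups compared alone. It overlaps ENOSF1 on the opposite strand, and whether counting used strand is not given in the sources used here, so its counts are uncertain. TK1, thymidine kinase of the salvage route, had 59.1, 48.8 and 50.9 CPM in DMSO, 54.4, 53.9 and 58.1 CPM at 6 h, and 29.2, 22.8 and 25.3 CPM at 24 h. It did not pass at 6 h (0.07 ± 0.13) and fell between 6 h and 24 h, by 1.11 ± 0.14 on the log2 scale (edgeR adjusted p = 6.9e-06). DUT, which removes dUTP, was at -0.30 ± 0.16 at 6 h, not called except without 6 h library 1 (-0.48), and -0.73 ± 0.17 at 24 h.

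The 4 genes of chromatin and histone supply all fell at 24 h, and 3 fell at 6 h. CHAF1B (ENSG00000159259), a subunit of the CAF-1 complex that places histones on new DNA, had 29.4, 27.1 and 26.7 CPM in DMSO, 16.0, 13.5 and 11.8 CPM at 6 h, and 15.8, 7.93 and 11.7 CPM at 24 h. It was at -1.01 ± 0.20 at 6 h (edgeR adjusted p = 9.7e-04) and -1.23 ± 0.21 at 24 h (edgeR adjusted p = 8.2e-05), with both treated groups below DMSO and overlapping each other. SLBP, which binds the stem-loop of histone messages, was at -1.21 ± 0.28 at 6 h, a call lost with the groups compared alone (edgeR adjusted p = 0.0572, the other alternatives staying at or under 0.0192), and -0.75 ± 0.27 at 24 h. Its 6 h value ran from -1.49 to -0.86 over the libraries left out. The 24 h call of SLBP (edgeR adjusted p = 0.0399) was kept without DMSO library 2 (-0.90) and lost without any other single library (-0.61 to -0.80). DNMT1, the maintenance DNA methyltransferase, was at -0.12 ± 0.12 at 6 h, not called (0.04 without 6 h library 2), and -0.41 ± 0.12 at 24 h. BRCA1 (ENSG00000012048), of homologous recombination and fork protection, had 176, 164 and 147 CPM in DMSO, 152, 168 and 126 CPM at 6 h, and 114, 74.2 and 85.9 CPM at 24 h. It overlapped DMSO at 6 h (-0.12 ± 0.14) and lay below it at 24 h (-0.83 ± 0.14, edgeR adjusted p = 1.3e-04). TIPIN, which steadies paused forks with TIMELESS, was at -0.71 ± 0.20 at 6 h and -0.97 ± 0.21 at 24 h, the 6 h call being lost without DMSO library 1 (-0.62) or 6 h library 2 (-0.50).

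**Figure D2:**
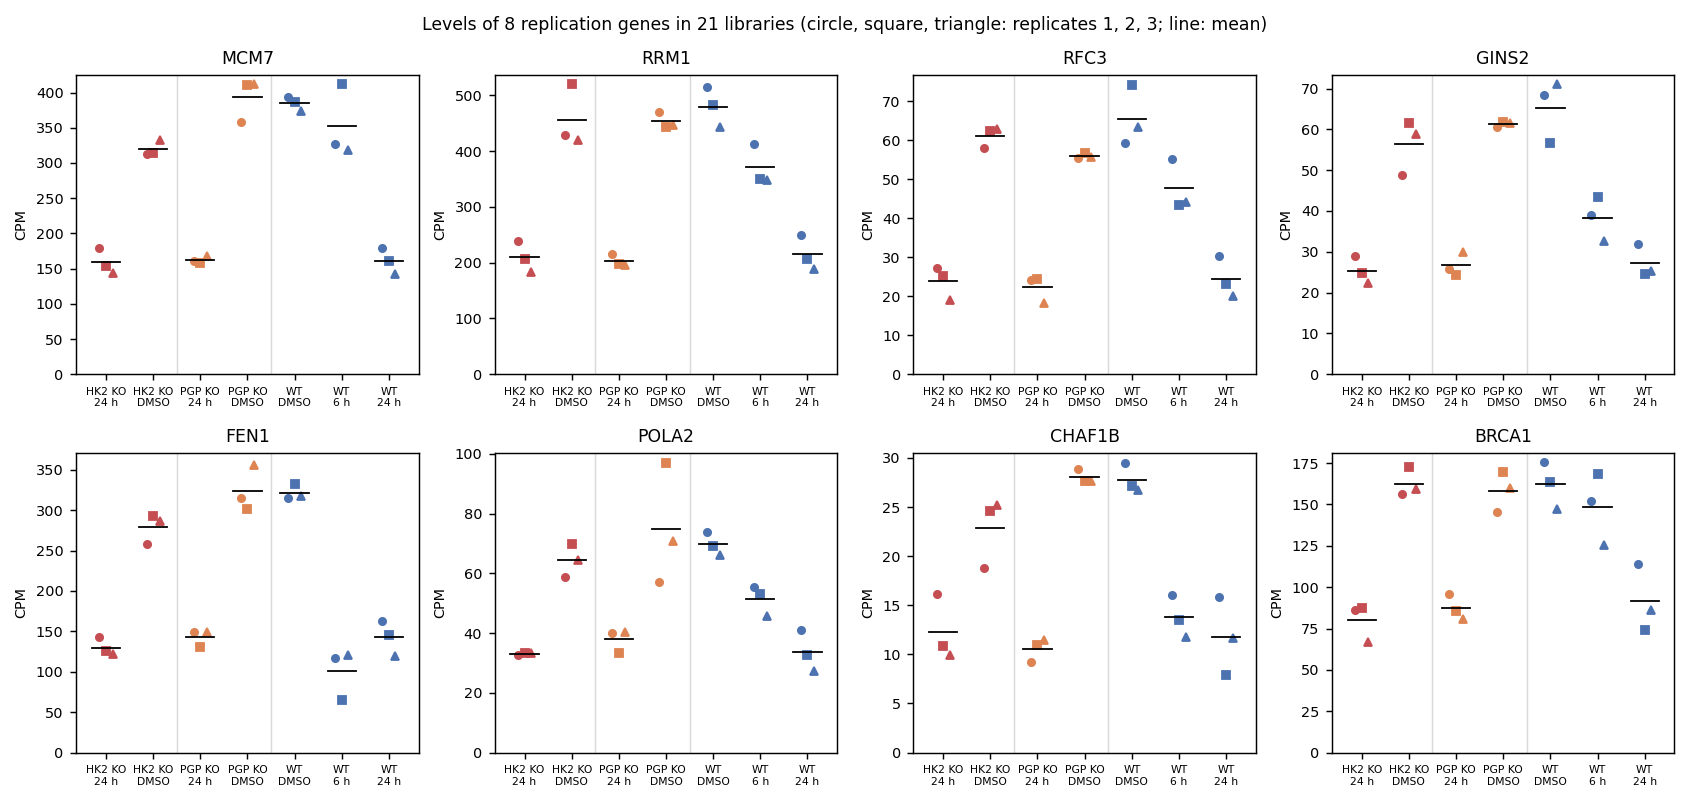
Level in CPM (y axis, from 0) of 8 replication genes, the leading gene of each role at 24 h, in every library of the 7 groups (x axis), with circle, square and triangle for replicates 1, 2 and 3 and a line at the mean of 3. MCM7 at 24 h lies between 142 and 179.5 CPM in wild type cells, below the 374 to 394 CPM of wild type DMSO, and FEN1 is lowest at 6 h.

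Between 6 h and 24 h of ironomycin, 21 of the 47 genes fell, 1 (FEN1) rose and 25 did not pass, with a median log2 value of -0.49, against 0.01 over all genes. In this comparison 8.08% of all genes were called lower and 16.6% were called in either direction, and 22 of the 47 lay lower without overlap, against 14.8% of all genes. It has no DMSO pair at each time, and it shares its libraries with the comparisons against DMSO. The largest steps after 6 h were those of MCM7, MCM5 and TK1 given above, followed by GINS4, LIG1 (-0.99 ± 0.23) and RFC3 (-0.96 ± 0.16). The values of CDC6, PCNA and SLBP were 0.19, 0.23 and 0.46, none of them called. The counts at 6 h depended on the fit: in a fit of the 6 libraries compared alone, 12 of the 47 were called at 6 h and 7 between 6 h and 24 h (GINS4, MCM5, MCM7, RFC3, RPA3, RRM1 and TK1, so neither FEN1 nor LIG1), and without library 2 of the 6 h group 14 were called at 6 h. The 6 h calls lost with the groups compared alone were MCM6, POLA2, POLE2, RFC3, RPA1, RPA3, RRM1, SLBP, TIPIN and TYMS. That of RPA1 was also lost without the filter.

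The fall at 24 h was also found in both knockouts. In the HK2 knockout 40 of the 47 genes fell against its own DMSO, none rose and 7 did not pass, with a median of -0.87, where 13.5% of all genes were called lower. In the PGP knockout 36 fell, none rose and 11 did not pass, with a median of -0.80, where 15.4% of all genes were called lower. The treated libraries lay below DMSO without overlap for 44 genes in the HK2 knockout (21.6% of all genes) and 39 in the PGP knockout (21.2% of all genes). Of the 47 genes, 36 were called lower in all 3 genotypes. GINS4 and POLD2 were called in the HK2 knockout alone, POLD1, RFC4 and SLBP in wild type alone, and RFC1 and POLE2 in both of these and not in the PGP knockout. CDT1, PRIM1, PRIM2 and RPA2 were called in none at 24 h. Several of these classes turned with the fit. GINS4 was called in wild type without the filter, with the replicate number as a block and with the groups compared alone. In the PGP knockout it was called in several alternatives, given below. In the HK2 knockout SLBP was at -0.71 ± 0.27 and missed narrowly (edgeR adjusted p = 0.0542, and between 2.3e-05 and 0.217 over the alternatives), being called by DESeq2, with its size factors, without the filter, with the groups compared alone, and without DMSO library 1 (-0.83) or 24 h library 3 (-0.93). PRIM1 was called in wild type and in the HK2 knockout without the filter and with the groups compared alone, PRIM2 in the HK2 knockout and CDT1 in the PGP knockout with the groups compared alone. CDT1 and RPA2 in wild type were called without 1 library, as given above, and POLD2 in the PGP knockout without DMSO library 1 (-0.39). Single libraries decided several of these calls: POLD2 in the HK2 knockout was lost without library 1 or 3 of DMSO or 2 or 3 of 24 h (-0.34 to -0.39), and RFC4 in wild type without DMSO library 3 or 24 h library 2 or 3 (-0.56 to -0.57). RFC1 was lost in wild type without library 1 or 2 of DMSO or 2 or 3 of 24 h (-0.30 to -0.38), and in the HK2 knockout without DMSO library 2 or 24 h library 3 (-0.35 to -0.38). A call in one genotype and not in another is no test of a difference, which follows below.

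MCM7 had 179, 154 and 144 CPM in HK2 knockout cells at 24 h, against 313, 315 and 333 CPM in HK2 knockout DMSO (-1.01 ± 0.11). It had 160.2, 158 and 168 CPM in PGP knockout cells at 24 h, against 358, 411 and 412 CPM in PGP knockout DMSO (-1.28 ± 0.11). Neither pair overlapped, and each treated group came to a level close to the 142 to 179.5 CPM of wild type at 24 h. RRM2 had 156, 120.5 and 164 CPM in HK2 knockout cells at 24 h, against 242, 276 and 279.7 CPM in DMSO (-0.85 ± 0.15), and 117, 114 and 147 CPM in PGP knockout cells at 24 h, against 209.7, 287 and 313 CPM in DMSO (-1.10 ± 0.15). FEN1 stood at 143, 125 and 122 CPM in HK2 knockout cells at 24 h, against 259, 293 and 287 CPM in DMSO, and at 149, 131 and 149 CPM in PGP knockout cells at 24 h, against 315, 302 and 356 CPM in DMSO. All 3 genes were lower in each treated library than in any DMSO library of the same knockout.

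Among the leading genes of the other roles, GINS2, RFC3, RRM1, POLA2, CHAF1B and BRCA1 were at -1.16, -1.36, -1.12, -0.96, -0.91 and -1.02 on the log2 scale in the HK2 knockout, and at -1.20, -1.33, -1.16, -0.98, -1.41 and -0.86 in the PGP knockout, each called. The edgeR adjusted p lay between 4.3e-07 and 0.0021 in the HK2 knockout and between 2.0e-07 and 9.0e-05 in the PGP knockout. PCNA fell in both, at -0.64 ± 0.20 and -0.80 ± 0.21, and its call in the HK2 knockout was lost without DMSO library 3 (-0.62) or 24 h library 2 (-0.48). POLE fell in both, at -0.86 ± 0.13 and -1.05 ± 0.13, while POLD1 passed in neither, at -0.22 ± 0.23 and -0.46 ± 0.22. PRIM2 was at -0.67 ± 0.27 and -0.21 ± 0.28, not called. In the HK2 knockout it was called with the groups compared alone (-0.67, edgeR adjusted p = 0.0488, and between 0.0157 and 0.251 over the alternatives) and without DMSO library 2 (-0.83). GINS4 stood at 2.85, 7.28 and 4.22 CPM in HK2 knockout cells at 24 h, against 11.6, 16.6 and 12.3 CPM in DMSO (-1.49 ± 0.28, edgeR adjusted p = 3.7e-04). In PGP knockout cells it had 5.65, 9.76 and 4.87 CPM at 24 h, against 14.4, 11.1 and 8.12 CPM in DMSO, where the groups overlapped. Its log2 value there was -0.73 ± 0.28 (edgeR adjusted p = 0.0511). It was called with the replicate number as a block (edgeR adjusted p = 0.0243), without the filter (edgeR adjusted p = 0.0464), by DESeq2 and with its size factors. Without DMSO library 3 or 24 h library 2 it was also called, at -0.94 and -1.10, and over all alternatives the adjusted p lay between 0.00914 and 0.204.

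No replication gene was called different between a knockout and wild type in the size of its 24 h response. In the interaction test of edgeR, 0 of 47 were called for either knockout, 0 had an unadjusted p under 0.05, and DESeq2 also called 0. Over all genes 0% were called for the HK2 knockout and 0% for the PGP knockout, with 267 and 221 genes at an unadjusted p under 0.05. The median difference in response was 0.06 on the log2 scale for each knockout. The 95% intervals of the difference held 0 for all 47 genes in both, with a median half-width of 0.48 for the HK2 knockout and 0.47 for the PGP knockout, and lay within 1 log2 unit either side of 0 for 44 and 43 genes, so larger differences are outside the intervals for these and smaller ones could not be resolved. The widest departures were GINS4 for the HK2 knockout, at -0.79 (95% interval -1.61 to 0.02), and POLE2 for the PGP knockout, at 0.55 (-0.37 to 1.48). As a description across the 47 genes, which share libraries and are not replicates, the log2 fold changes at 24 h correlated with those in wild type at Pearson's r = 0.772 and Spearman's rho = 0.748 for the HK2 knockout and at 0.855 and 0.86 for the PGP knockout.

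**Figure D3:**
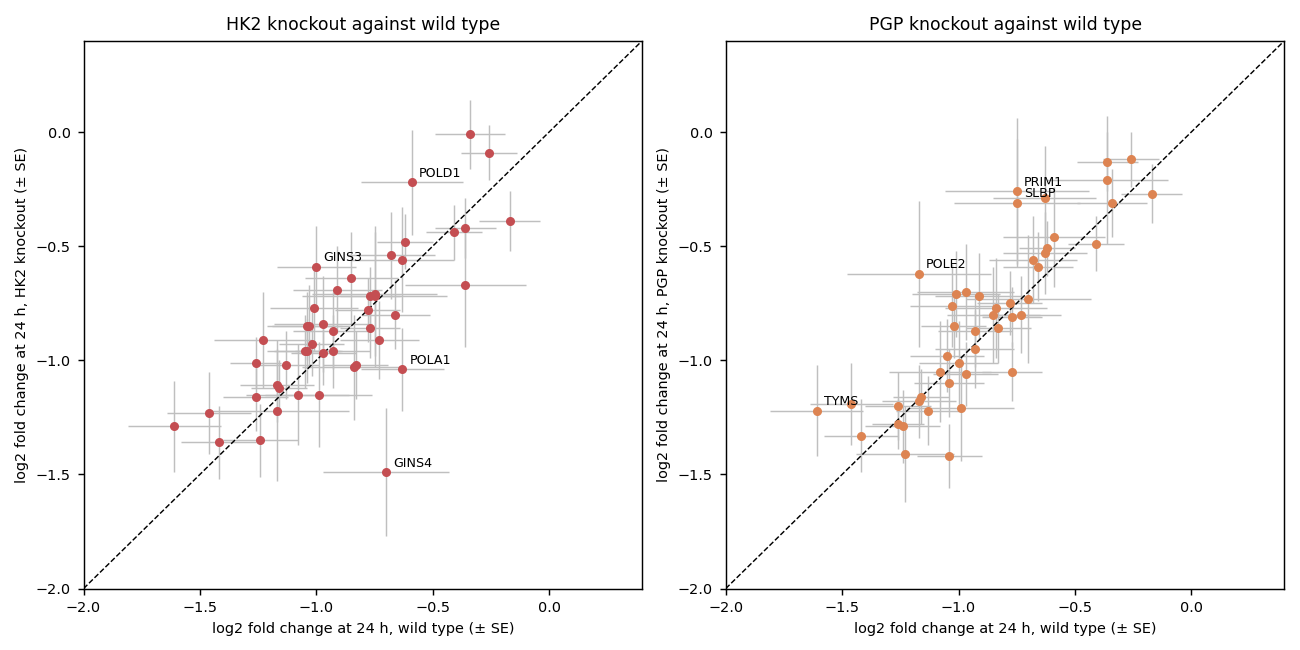
Log2 fold change at 24 h over DMSO of 47 replication genes (points, ± SE) in the HK2 knockout (left, y axis) and the PGP knockout (right, y axis) against wild type (x axis), with 3 libraries per group. The dashed line marks equal change, and the named genes are those farthest from it. The points follow the line with r = 0.772 and 0.855, and the difference was called for none of them.

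In DMSO no replication gene was called different between a knockout and wild type. For the HK2 knockout 0 of 47 were called by edgeR and by DESeq2, and 4 had an unadjusted p under 0.05, POLD1, GINS3, RFC5 and MCM7, named after their values were seen, at -0.65 ± 0.22, -0.48 ± 0.17, -0.35 ± 0.14 and -0.27 ± 0.11. Over all genes 0.00861% were called (1 gene), and 606 had an unadjusted p under 0.05. For the PGP knockout 0 of 47 were called by either tool and 0 had an unadjusted p under 0.05, where 0% of all genes were called and 648 had an unadjusted p under 0.05. The medians of the 47 genes were -0.10 for the HK2 knockout and -0.09 for the PGP knockout, against -0.01 and 0.01 over all genes. The 95% interval of the difference held 0 for 43 and 47 genes, with median half-widths of 0.32 and 0.33.

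The summed level of the 47 genes gave the same order in each genotype. In wild type cells it was 7322, 7217 and 7344 CPM with DMSO, 6156, 5232 and 5570 CPM at 6 h, and 4770, 3830 and 3842 CPM at 24 h. In the HK2 knockout it was 4398, 3739 and 3669 CPM at 24 h, against 6473, 7022 and 6790 CPM in DMSO, and in the PGP knockout 4291, 3836 and 3837 CPM at 24 h, against 6807, 6909 and 7124 CPM in DMSO. No treated library reached a DMSO library of its genotype. Replicate 1 had the highest sum in each of the 4 treated groups, and without it the median log2 fold change was -1.03 in wild type at 24 h, -0.97 in the HK2 knockout and -0.95 in the PGP knockout. The share of counts from mitochondrial messenger RNA was 5.72%, 3.97% and 2.36% in wild type with DMSO, at 6 h and at 24 h, while the nuclear RNA MALAT1 took 0.254%, 0.344% and 0.646%. The summed level of the 8 B-lymphoid markers was 9.99 to 19.5 CPM in the libraries at 24 h and 24.3 to 64.5 CPM in the 6 h and DMSO libraries. These markers did not move together. Of the 3 tested, 2 were called higher and 1 lower at 24 h in wild type and in the HK2 knockout. In the PGP knockout 1 was called higher and 1 lower. The part of these shifts in the changes of the replication genes was not tested.

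**Figure D4:**
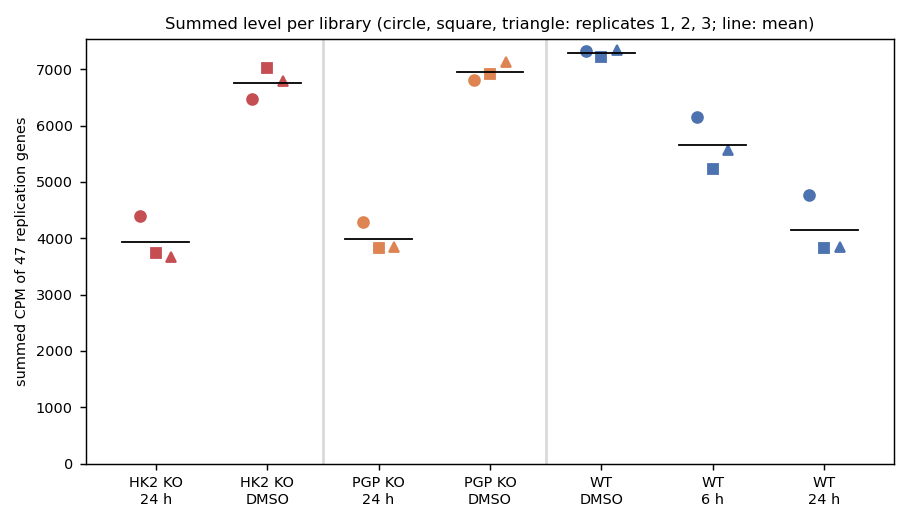
Summed CPM of 47 replication genes (y axis, from 0) in each of the 21 libraries by group (x axis), with circle, square and triangle for replicates 1, 2 and 3 and a line at the mean of 3. The treated libraries at 24 h lie between 3669 and 4770 CPM, below all DMSO libraries, which lie between 6473 and 7344 CPM, and the 6 h group lies between them.

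Genes that work beside those on the list were read from further lists, chosen with earlier results of these data known. Over all genes in wild type cells, 11.1% were called lower and 10.9% higher at 6 h, and 14.6% lower and 15.3% higher at 24 h. Of 29 tested genes of origin firing and the fork, 7 fell and none rose at 6 h, and 22 fell and none rose at 24 h, with medians of -0.29 and -0.64. Among them GMNN, the inhibitor of CDT1, was at -1.08 ± 0.15 at 6 h and -1.11 ± 0.15 at 24 h, and RNASEH2A, a subunit of RNase H2, was at -1.04 ± 0.14 at 24 h. Of 22 checkpoint and repair genes, 6 fell at 6 h and 20 at 24 h, none rising, with medians of -0.24 and -0.88, and CHEK1, the checkpoint kinase, was at -1.07 ± 0.13 at 24 h. Of 12 further genes of chromatin assembly, 5 fell at 6 h, and 9 fell and 1 rose at 24 h. NASP, a histone chaperone, was at -1.10 ± 0.14 at 24 h. Of 14 further genes of nucleotide supply, 4 fell and 1 rose at 6 h, and 6 fell and 2 rose at 24 h, the 2 being a share close to that of all genes called higher. DCTPP1, which hydrolyses dCTP, was at -1.11 ± 0.10 at 6 h and -1.31 ± 0.10 at 24 h.

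Of 12 tested DNA enzymes that hold iron, 5 of which are on the replication list, RRM2 fell and MUTYH rose at 6 h, and 8 fell and none rose at 24 h, with medians of -0.20 and -0.61. At 6 h both counts were near the share of all genes. Of 19 regulators of the step into S phase, 6 fell and 1 rose at 6 h, and 10 fell and 2 rose at 24 h. CDC25A, the phosphatase that activates CDK2, was at -1.63 ± 0.14 at 6 h (edgeR adjusted p = 2.4e-08) and -1.44 ± 0.13 at 24 h, and CCNA2, the cyclin of S phase and G2, was at -0.37 at 6 h and -1.67 ± 0.13 at 24 h. Of 18 genes of mitosis, 3 fell at 6 h and all 18 at 24 h, with medians of 0.00 and -1.74 in wild type, and all 18 fell at 24 h in the HK2 knockout (median -1.45) and in the PGP knockout (median -1.52). For the 47 replication genes the medians at 6 h and 24 h were -0.37 and -0.93. CCNB1, the mitotic cyclin B1, averaged 130.7 ± 10.15, 92.4 ± 17.45 and 28.15 ± 5.30 CPM in wild type with DMSO, at 6 h and at 24 h.

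Among the genes with a promoter window and an expression value, which leaves out UHRF1, 11 of the 20 that fell at 6 h (55%) and 9 of the 21 not called at 6 h (42.9%) held an E2F-type match. FEN1, SLBP, CHAF1B and MCM10, whose values at 6 h were among the lowest of the 47, had no match in their windows. CDC6 (-1.22) and PCNA (-1.08), also among the lowest at 6 h, held a match, PCNA in only 1 of its windows. MCM7, not called at 6 h, had a pair of matches in 1 of its windows and none in the others. This is a description of the windows, with no test.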

How the data were processed

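RNA was extracted with RNeasy and 3′ end libraries were made with QuantSeq (Lexogen), per the labels' protocols. The authors deposited whole-number counts by Ensembl gene with no normalization, and the submitters' processing notes name bcl2fastq 2.20.0.422, HISAT2, HTSeq and hg19 with no role or order. The strand setting is not given in the sources used here. Of 54042 rows, 51661 had a symbol in the table of gene names used, and the others (353970 counts) stayed in the library sizes and tests.

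Counts were tested in R 4.3.3 with edgeR 4.0.16 (quasi-likelihood test, TMM scaling, filterByExpr with a minimum count of 10 and a minimum total of 15). All 21 libraries entered 1 fit with a mean per group, and p-values were adjusted by Benjamini-Hochberg over 11610 genes for each of 9 comparisons. CPM are on TMM effective sizes, and an error after a CPM mean is the SD of 3 libraries and after a log2 value the SE (the log2 value over the square root of F). The alternatives were DESeq2 1.42.0, its size factors, no low-count filter, the groups compared alone, the replicate number as a block, and each library left out. The code was tested on simulated counts. Figures were drawn with matplotlib 3.10.9.

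The members and lists were chosen with earlier results of these data known. Genes given library by library were the one of smallest adjusted p in each role at 24 h, RRM2, PRIM2, POLD1, POLE and PCNA, up to 5 not called at 24 h, the 3 of smallest adjusted p at 6 h and the 3 of largest called change between 6 h and 24 h. Other genes given by log2 value were picked after their values were seen. The labels do not say whether the replicate numbers pair libraries, and no threshold for a pairing was set. Deviations from the group means, 24 h against DMSO, correlated at 0.243, 0.164 and 0.247 for replicates 1, 2 and 3 in the PGP knockout. They correlated at 0.166, 0.0504 and 0.236 in wild type and at 0.0396, -0.0394 and 0.121 in the HK2 knockout. For wild type at 6 h against DMSO the values were 0.0491, 0.164 and 0.347.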

Additional observations from a re-analysis of the deposited data

How the results depend on the processing

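At 24 h the number of the 47 genes called lower moved little: over the libraries left out in turn it ran from 37 to 40 in wild type (41 with all), from 35 to 40 in the HK2 knockout (40) and from 34 to 36 in the PGP knockout (36), and over the other alternatives from 40 to 43, 41 to 44 and at 37. The 6 h count of 22 was 12 in a fit of the groups compared alone and 14 to 25 over the libraries left out, lowest without 6 h library 2, and the 24 h against 6 h count of 22 was 7 in a fit of the groups compared alone and 15 to 28 over the libraries left out. The cause was not tested. Of the calls, 12 of 22 at 6 h, 36 of 41 at 24 h, 7 of 22 between the times, 34 of 40 in the HK2 knockout and 33 of 36 in the PGP knockout held in every alternative run. With the replicate block the counts were 26, 43, 29, 44 and 37, and stayed at 0 in the 4 comparisons with no call. Whether libraries that share a replicate number are pairs stayed undecided, since the correlations given above had no threshold. For 24 h against DMSO they ran from 0.0504 to 0.236 in wild type and from 0.164 to 0.247 in the PGP knockout. These ranges overlap, and in the HK2 knockout the values ran from -0.0394 to 0.121. In wild type and the HK2 knockout the block added calls among the genes named, such as PRIM1 (adjusted p = 0.0276) and GINS4 (0.0262) in wild type at 24 h, and PRIM1 (0.0242), PRIM2 (0.0157) and SLBP (0.012) in the HK2 knockout. Values near 0 changed sign on leaving out a library: at 6 h MCM5 ran from -0.09 to 0.31 and PRIM1 from -0.46 to 0.28. Between the times CDC6 ran from -0.04 to 0.28, PCNA from -0.03 to 0.37, PRIM2 from -0.19 to 0.15, POLD2 from -0.18 to 0.06 and RPA2 from -0.01 to 0.11. CDT1 in the HK2 knockout ran from -0.12 to 0.05 and PRIM1 in the PGP knockout from -0.58 to 0.00. Over all genes, the fit of the groups compared alone called 1212 genes at 6 h against 2556, and 749 between the times against 1922. The 1 gene called for the HK2 knockout in DMSO became 59 without the filter, 23 by DESeq2, 19 with the block and 17 with the groups compared alone. The 0 for the PGP knockout in DMSO became 96 without the filter and 2 with the groups compared alone. The 0 for the differences in response became 17 (HK2 knockout) and 18 (PGP knockout) without the filter, and 1 for the PGP knockout with the groups compared alone. With 3 libraries a group, differences in response smaller than a gene's half-width could not be resolved. These half-widths had medians of 0.48 (HK2 knockout) and 0.47 (PGP knockout). They ran from 0.33 to 0.92 and from 0.33 to 0.93.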
